A study of Drosophila melanogaster with 24 samples.

Results

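miR-1 and miR-133 are the microRNAs most closely tied to muscle in animals, and their level was read in body tissue and in hemolymph, the fly's blood-like body fluid, at a young and an old age. The members were taken by name as both arms of the mir-1 and mir-133 hairpins, which gave dme-miR-1-3p, dme-miR-1-5p, dme-miR-133-3p and dme-miR-133-5p, hereafter without the species prefix, 4 of the 466 mature microRNA names of the deposited count table. The 24 libraries came from Drosophila melanogaster labelled male. Young flies were 2 days old (body tissue, n = 4, and hemolymph, n = 4) and old flies were 25 days old (body tissue, n = 8, and hemolymph, n = 8). The labels give no strain, genotype or treatment, and do not say which parts of the fly make up the body tissue. Hemolymph RNA was extracted with a serum and plasma kit and body RNA with a standard kit of the same maker, so an effect of the kit cannot be told apart from one of the compartment.

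A microRNA is cut from a hairpin precursor, and usually 1 of the 2 arms is loaded into an Argonaute protein, which it guides to messenger RNAs that match its seed, while the other arm is mostly degraded. In flies, mir-1 is expressed in the muscle lineage under the muscle transcription factors Twist and Mef2, and flies without it die as larvae with damaged muscle. miR-133 is known from vertebrates as the partner of miR-1 in heart and skeletal muscle, where the pair is made from shared transcripts. MicroRNAs of a tissue can reach body fluids from living or damaged cells, and in mammals the level of miR-1 and miR-133 in plasma is used as a sign of muscle injury.

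In the fly genome the hairpins lie apart on chromosome 2L, both on the plus strand (dm6 coordinates, Ensembl annotation). The mir-1 hairpin spans 20487441 to 20487531, within the gene span of the noncoding RNA CR45361 on the same strand. The annotated mature products of mir-1 lie at 20487458 to 20487479 (the 5p side) and 20487496 to 20487517 (the 3p side). The mir-133 hairpin spans 20616617 to 20616714, with mature products at 20616635 to 20616657 and 20616673 to 20616694. A noncoding RNA, CR44909, overlaps it on the opposite strand, and on its own strand only entries at the positions of its mature products overlap it. The hairpins are 129.1 kb apart, and 19 annotated genes lie wholly between them.

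Library depth limits what can be said of hemolymph. Body libraries had totals of 136692 to 242935 microRNA counts. Hemolymph libraries had 52792 to 275974, and there the young libraries 3 and 4 (56010 and 69239 counts) were far shallower than young libraries 1 and 2 (169817 and 275974). Young libraries 1 and 2 also stood apart in their ovary microRNAs. In young body the ovary list (miR-318-3p, miR-994-5p and miR-989-3p) took 0.255%, 1.5%, 8.03% and 6.91% of counts in libraries 1 to 4, although all are labelled male. The submitters' codes hold an R for old libraries 5 to 8 and an O for old libraries 1 to 4, and no label explains either letter. The labels do not say whether replicates are separate pools of flies, so the p-values rest on a spread between libraries that may be technical. Levels are CPM (a count divided by the library's total of microRNA counts, times 1e6). Fold changes are on the log2 scale after TMM scaling, ± SE. For edgeR the SE was the size of the change over the square root of its F statistic. At few counts this SE can be smaller than the p-value implies.

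Most of the members' counts came from the 3p arms, in body. miR-1-3p was at 2775, 2176, 1280 and 1280 CPM in young body libraries 1 to 4, from 520, 392, 253 and 311 counts. In old body its lowest, median and highest levels were 574, 742 and 889 CPM. Every old body library thus lay below every young one. In young hemolymph miR-1-3p was at 194, 366, 321 and 101 CPM in libraries 1 to 4, from 33, 101, 18 and 7 counts. In old hemolymph the lowest, median and highest levels were 13.4, 72.5 and 145 CPM, from 1 to 14 counts a library. The order of the group means was young body at 1878 ± 732 CPM (SD, n = 4), then old body at 740 ± 124 (n = 8), then young hemolymph at 246 ± 121 (n = 4), and last old hemolymph at 78.5 ± 49.9 (n = 8), and only the hemolymph groups overlapped in range.

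miR-133-3p was scarce in hemolymph. Its level was 1697, 1415, 967 and 1186 CPM in young body libraries 1 to 4, and 880, 1055 and 1169 CPM as lowest, median and highest in old body. Young hemolymph libraries 1 to 4 held 3, 2, 4 and 3 counts, or 17.7, 7.25, 71.4 and 43.3 CPM. Old hemolymph libraries held 0 to 4 counts, with a median of 24.9 CPM and a highest of 37.9 CPM, and 7 of 8 had at least 1 count. In young hemolymph the counts were about equal while the library totals differed, so the 2 deepest libraries had the lowest CPM. The group means were 1316 ± 313 CPM in young body (n = 4), 1045 ± 96.2 in old body (n = 8), 34.9 ± 28.7 in young hemolymph (n = 4) and 23.8 ± 12.7 in old hemolymph (n = 8), with overlapping ranges between the ages of each compartment.

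**Figure D1:**
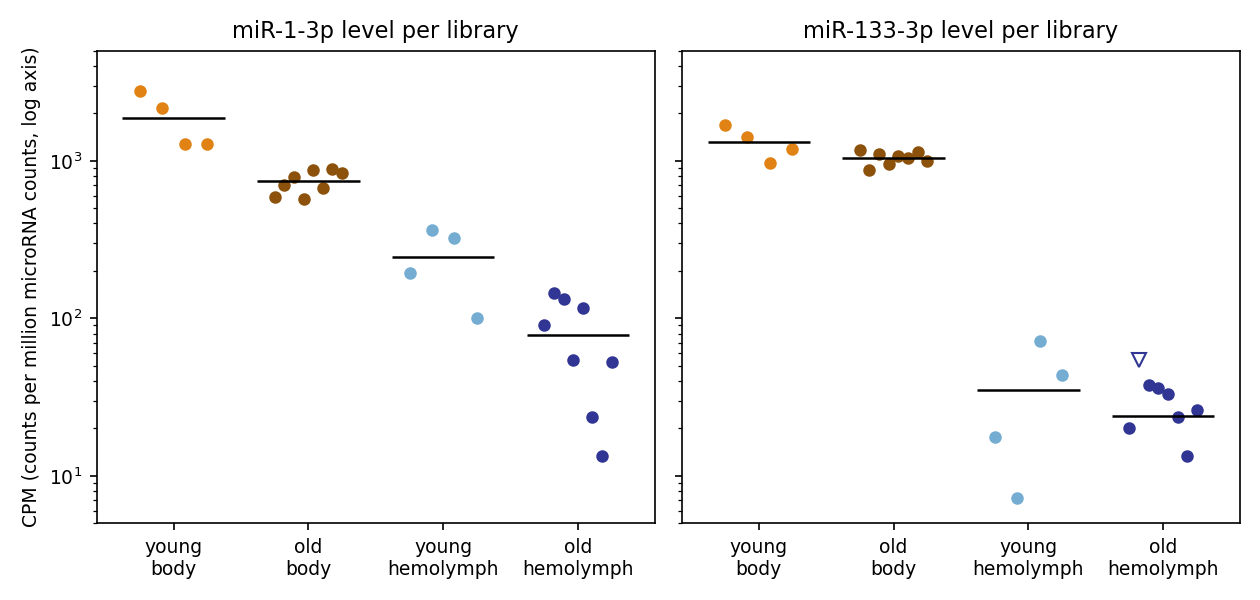
Levels of miR-1-3p (left) and miR-133-3p (right) in CPM on a log axis, 1 point per library, with a line at the group mean. The open triangle marks old hemolymph library 2, which held 0 counts of miR-133-3p, at its floor of 3 counts. All body libraries lie above all hemolymph libraries for both microRNAs, and miR-133-3p is the lower of the pair in hemolymph by group mean.

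Neither microRNA was among the leading ones of the body. By level, miR-1-3p ranked between 35 and 53 of the 466 names in young body libraries and between 61 and 68 in old ones, and it took an average of 0.188% of young body and 0.0740% of old body counts. miR-133-3p ranked between 42 and 58 in young body and between 52 and 63 in old body. In hemolymph the ranks of miR-1-3p ran from 59 to 87 in young and from 78 to 116 in old libraries. Ligation and amplification favour some small RNA sequences over others, so ranks and levels between microRNAs carry that bias. The same microRNA can be compared between libraries of a compartment, while between compartments the kit differs too.

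The first question was how far miR-1 and miR-133 of the body are found in the circulation of young flies. Whether miR-133 marks muscle in flies was not tested. Both 3p arms were lower in young hemolymph than in young body. miR-1-3p differed by -2.92 ± 0.46 (adjusted p = 3.9e-06) and miR-133-3p by -5.66 ± 0.47 (adjusted p = 2.0e-10), by edgeR's quasi-likelihood test with Benjamini-Hochberg adjustment over 124 microRNAs. On the CPM scale the body mean was 7.64 times that of hemolymph for miR-1-3p and 37.7 times for miR-133-3p. The groups did not overlap for either. Lower calls were common in this comparison, at 40.3% of the tested microRNAs, and 31.5% did not overlap in that direction. miR-133-3p could pass the low-count filter only through body libraries, so a count of members called is not a result in itself. By size, the change of miR-133-3p was the 13th most negative of the 124 and that of miR-1-3p the 31st.

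The same order was seen in old flies. In old hemolymph miR-1-3p differed from old body by -3.38 ± 0.37 (adjusted p = 8.4e-09) and miR-133-3p by -5.49 ± 0.34 (adjusted p = 5.0e-13). Again no hemolymph library reached the lowest body library, the highest hemolymph level of miR-1-3p being 145 CPM and the lowest body level 574. Of the tested microRNAs 46% were called lower here and 34.7% did not overlap in that direction. miR-133-3p had the 10th most negative change and miR-1-3p the 22nd. The R-coded old libraries alone gave -3.86 for miR-1-3p and the O-coded ones alone -2.73, both called. miR-1-3p was at 106 ± 41.5 CPM in O-coded and 51.3 ± 46.1 CPM in R-coded old hemolymph (n = 4 each). In old body the levels ran the other way, at 662 ± 98.9 and 818 ± 100 CPM.

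Because miR-133-3p in hemolymph rests on few reads, its size was also read from the summed counts of each group. Young hemolymph held 12 counts among 571040, or 21.0 CPM (exact Poisson 95% interval 10.9 to 36.7), and old hemolymph 16 counts among 656962, or 24.4 CPM (13.9 to 39.6). Body held 1052 counts at the young and 1388 at the old age. The body level by summed counts was 61.9 times that of hemolymph in young flies (exact 95% interval 35.3 to 120) and 43.1 times in old flies (26.4 to 75.6). For miR-1-3p the same ratio was 6.56 in young (5.57 to 7.78) and 9.82 in old flies (7.39 to 13.3). These intervals cover counting error only. Without young hemolymph library 2, the deepest, the young ratio of miR-133-3p was 38.4 (20.8 to 80.3), from 10 counts. The fitted difference without young libraries 1 and 2 was -4.29 for miR-133-3p and -2.70 for miR-1-3p, both called.

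**Figure D2:**
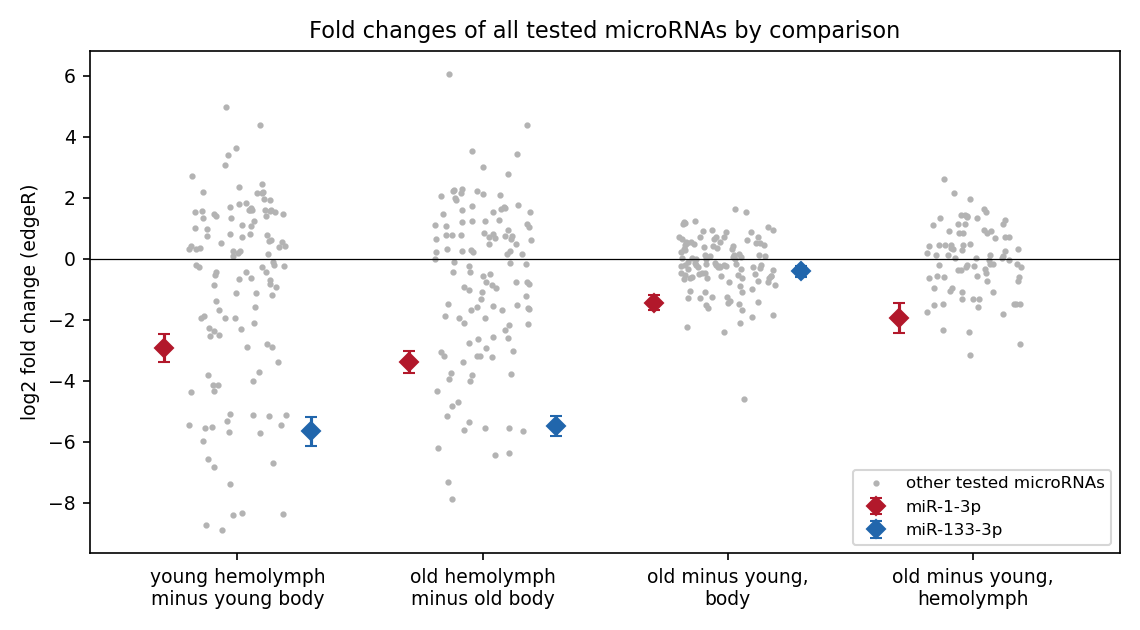
Log2 fold changes by edgeR for every tested microRNA in the comparisons of compartment and of age. Grey points are the other microRNAs and diamonds are miR-1-3p and miR-133-3p with their SE. In both compartment comparisons miR-133-3p (-5.66 and -5.49) lies further below 0 than miR-1-3p (-2.92 and -3.38). miR-133-3p did not pass the count filter for age in hemolymph and has no point there.

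The make-up of the pair differed between the compartments. miR-1-3p took 58.4% of the summed miR-1-3p and miR-133-3p counts in young body (1476 of 2528, exact Clopper-Pearson 95% interval 56.4 to 60.3) and 93.0% in young hemolymph (159 of 171, 88.1 to 96.3). In old flies the shares were 41.6% in body (989 of 2377, 39.6 to 43.6) and 75.8% in hemolymph (50 of 66, 63.6 to 85.5). The log2 ratio of miR-1-3p to miR-133-3p, with 0.5 count added to each, needs no scaling between libraries. At few counts the added 0.5 pulls the ratio toward 0, which lies above every old body value (highest -0.26). Old hemolymph libraries 6 and 7 stood at 0, from 2 against 2 and 1 against 1 counts. The mean ratio was -0.51 ± 0.25 in old body and 1.33 ± 1.34 in old hemolymph (SD, n = 8 each), without overlap. The exact permutation test gave a two-sided p of 0.000155, the smallest possible (adjusted p = 0.000932 over 6 ratio and arm tests). In young flies the mean was 0.46 ± 0.27 in body and 2.94 ± 1.83 in hemolymph (n = 4 each). These did not overlap either, but the exact permutation p of 0.0286, the smallest that 4 against 4 libraries allow, gave an adjusted p of 0.0571, which misses 0.05. Paired by library number, the young ratio was higher in hemolymph in 4 of 4 pairs (exact sign-flip p = 0.125, the smallest possible). Without young libraries 1 and 2 the young difference was 1.31, again without overlap. That is 2 against 2 libraries, too few for the exact permutation test (adjusted p = 0.667) to reach the threshold whatever the values. With O-coded or R-coded old libraries alone the difference in old flies was 2.66 or 1.03, each without overlap and each with an adjusted p of 0.0571 in the exact permutation test.

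**Figure D3:**
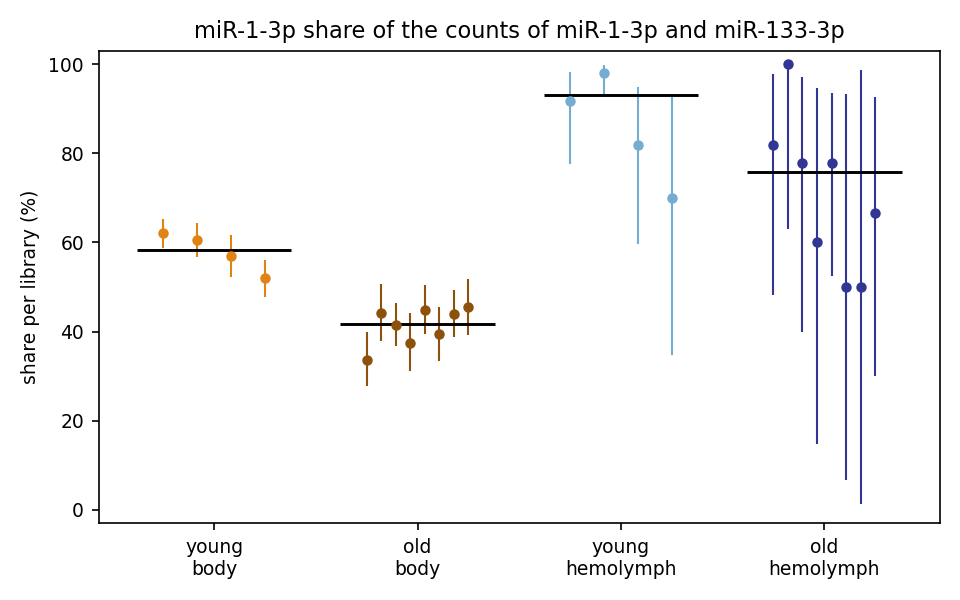
Share of miR-1-3p in the counts of miR-1-3p and miR-133-3p, in percent, 1 point per library with its exact binomial 95% interval, and a line at the share of the summed counts of the group. Body libraries lie between 33.6% and 62.1% and hemolymph libraries between 50% and 100%, with wide intervals where a hemolymph library held few counts.

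The next question was how the pair changes in the body between 2 and 25 days. miR-1-3p fell, with a log2 change of -1.44 ± 0.26 (edgeR, adjusted p = 0.000639 over 115 microRNAs), from 1878 to 740 CPM, and all 8 old libraries lay below all 4 young ones. In this comparison 29.6% of the microRNAs were called lower and 16.5% did not overlap in that direction, and the change of miR-1-3p was the 12th most negative of 115. miR-133-3p was at -0.41 ± 0.18 (adjusted p = 0.0778) and its groups overlapped, with 4 young libraries between 967 and 1697 CPM and 8 old ones between 880 and 1169. The log2 ratio of the pair accordingly went from 0.46 ± 0.27 to -0.51 ± 0.25, without overlap (difference -0.97, exact permutation p = 0.00404, the smallest for 4 against 8, adjusted p = 0.0121). Other markers moved with age in body as well, and their part was not tested. All 3 gut microRNAs of the list rose, miR-8-3p rose by 0.66 on the log2 scale, and of the 5 nervous system microRNAs 3 fell (miR-987-5p, miR-124-3p and miR-957-3p) and 1 rose (miR-210-3p). Of all microRNAs tested there, 19.1% were called higher. In bulk tissue, fewer muscle cells and less of a microRNA per muscle cell cannot be told apart, and a share also depends on the other microRNAs of the library.

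The size of the fall of miR-1-3p in body depended on which young libraries were used. The young body libraries with the most miR-1-3p were those with the least of the ovary microRNA miR-318-3p, which was at 64.0, 6660, 68137 and 54850 CPM in libraries 1 to 4. Taking the 3 ovary microRNAs out of the totals gave 2782, 2209, 1392 and 1375 CPM of miR-1-3p in libraries 1 to 4. The fitted change with all ovary arms left out was -1.45 ± 0.25 (adjusted p = 0.000429). The ovary list summed to 2551 to 80276 CPM in young body and 19753 to 35788 in old body, all labelled male. The part of ovary material in the result was not tested. Without young libraries 1 and 2 the change was -0.72 ± 0.17 (adjusted p = 0.00177), and miR-133-3p stood at 0.02 ± 0.12 (adjusted p = 0.909). On those libraries the log2 ratio of the pair changed by -0.77, without overlap (0.40 and 0.11 in young libraries 3 and 4, at most -0.26 in old ones). The exact permutation test (adjusted p = 0.133) could not pass the threshold with so few young libraries, so the miss decides nothing.

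In hemolymph miR-1-3p was the member that passed the count filter for the comparison of ages. It was lower in old hemolymph by -1.94 ± 0.48 (adjusted p = 0.00469 over 86 microRNAs, edgeR), from 246 to 78.5 CPM, with overlap, since 3 old libraries (116, 133 and 145 CPM) lay above young library 4 (101 CPM). Here 27.9% of the microRNAs were called lower and 12.8% did not overlap in that direction, and that of miR-1-3p was the 5th most negative change of 86. The call was lost without young hemolymph library 2 (-1.38 ± 0.56, adjusted p = 0.0782), the deepest library and the one with 101 of the 159 young counts. It was also lost without young libraries 1 and 2 (-1.67 ± 0.67, adjusted p = 0.0685). With O-coded old libraries alone miR-1-3p did not pass the count filter. miR-133-3p held 12 counts in young and 16 in old hemolymph, a ratio of old to young of 1.16 (exact 95% interval 0.514 to 2.68, counting error only), so no change in either direction was detectable at this depth. In the fit of all 24 libraries its age change in hemolymph was -0.26 ± 0.56 (edgeR, adjusted p = 0.953), and without a filter -0.34 ± 0.74 (adjusted p = 0.763). The log2 ratio of the pair differed by -1.60 between old and young hemolymph, with overlap (exact permutation p = 0.129, adjusted p = 0.194).

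The age change did not differ detectably between hemolymph and body. For miR-1-3p the change in hemolymph less that in body was -0.46 ± 0.56 (adjusted p = 0.633) and for miR-133-3p 0.18 ± 0.65 (adjusted p = 0.885), by edgeR over all 24 libraries, where 14.5% of the 124 microRNAs were called in either direction. A p that misses the threshold does not show that the changes were alike.

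The 5p arms were rare, and their counts lay mostly in 1 group. miR-1-5p had 19 counts in all 24 libraries, and 16 of them were in young hemolymph, with 0, 3, 5 and 8 counts in libraries 1 to 4. In body 3 of 12 libraries had 1 count each, and no old hemolymph library had any. For old hemolymph the floor of 3 counts over the group was 4.57 CPM, and the upper limit of the exact Poisson 95% interval was 5.62 CPM. Young hemolymph held 28.0 CPM over its summed counts (exact Poisson 95% interval 16.0 to 45.5), young body 2.47 (0.300 to 8.94) and old body 0.756 (0.0191 to 4.21). By summed counts the young level was 6.14 times the floor of the old hemolymph group, and 3.49 times without young library 4. Neither value is a lower bound, since the young level carries counting error too. The exact 95% interval of the ratio of young to old begins at 4.44. The arm did not pass the count filter. In the fit without a filter, over 329 microRNAs, the excess of miR-1-5p in young hemolymph over young body was called (3.48 ± 1.02, adjusted p = 0.00683, edgeR, with 13.1% called higher), a value that depends on the prior count. In the same way it was lower in old than in young hemolymph (-5.23 ± 1.33, adjusted p = 0.00802 over 271 microRNAs, with 9.59% called lower).

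Set against its own hairpin, the 5p arm was 9.14% of mir-1 counts in young hemolymph (16 of 175, exact 95% interval 5.32 to 14.4) and 0.135% in young body (2 of 1478, 0.0164 to 0.488). Library by library the share in young hemolymph was 0 of 33 counts, 2.88% (3 of 104), 21.7% (5 of 23) and 53.3% (8 of 15, 26.6 to 78.7). In young hemolymph library 4 the arm known as the minor one thus had more counts than miR-1-3p (8 against 7). The high shares were those of the shallow libraries 3 and 4, whose part in the result was not tested. In old hemolymph the share was 0 of 50 counts, with an upper 95% limit of 7.11%. Among 76 hairpins with both arms listed and at least 20 counts in each young group, 40 had a higher minor arm share in hemolymph and 29 a lower one. The difference of mir-1, 9.01 percentage points, was the 12th largest. miR-133-5p had 2 counts in all, 1 each in old body libraries 1 and 5, and the hairpin's 5p share in old body was 0.144% (2 of 1390).

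**Figure D4:**
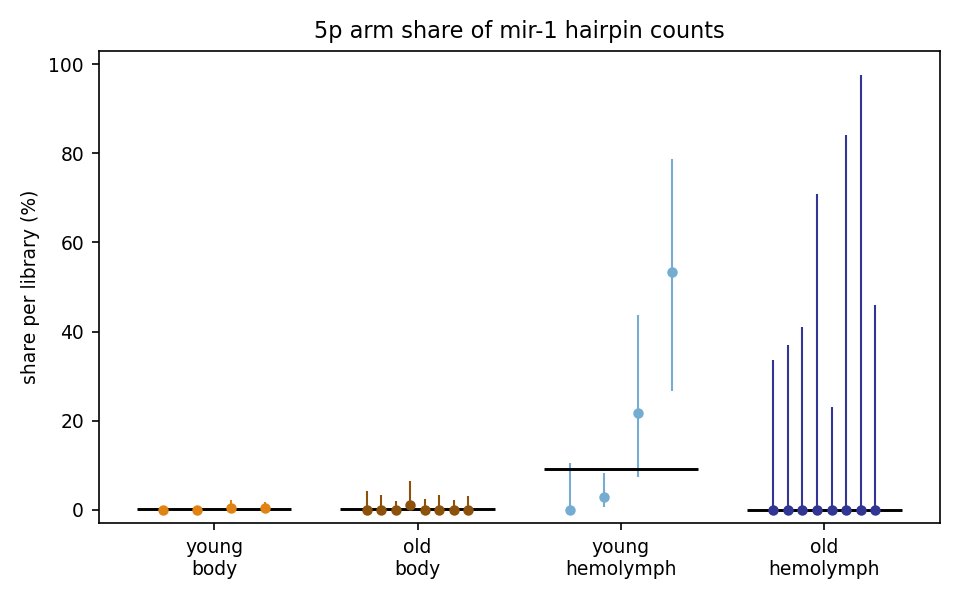
Share of the 5p arm in the counts of the mir-1 hairpin, in percent, 1 point per library with its exact binomial 95% interval, and a line at the share of the group's summed counts. Body and old hemolymph libraries lie between 0% and 1.18%, and young hemolymph libraries reach 53.3%, in library 4 from 15 counts.

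Markers of other tissues moved with the compartments too, and their part in the result was not tested. All 5 nervous system microRNAs of a list were lower in hemolymph at both ages. Of all microRNAs, 40.3% were called lower in young and 46% in old flies. Within hemolymph only miR-957-3p of the list passed the count filter. The others could pass only through body libraries, so the count called is not a result in itself. The median log2 change of the list was -5.72 in young and -5.66 in old flies, beside -5.66 and -5.49 for miR-133-3p. The list summed to 7469 to 11869 CPM in young body and 112 to 192 in young hemolymph. In old flies it summed to 5876 to 7975 in body and 271 to 1011 in hemolymph. miR-124-3p, a defining neuronal microRNA, was at 0 in young hemolymph. The gut list, 3 microRNAs from the mir-281 hairpins, was lower throughout at both ages, from 5929 to 24974 CPM in young body against 1625 to 3124 in young hemolymph, and from 26594 to 35514 against 4457 to 10261 in the old groups. The ovary list was lower as well, at 2551 to 80276 CPM in young body and 23.6 to 2152 in young hemolymph. In the old groups it was at 19753 to 35788 and 227 to 20197, with overlap, and its median in old hemolymph was 534 CPM. Its miR-989-3p did not pass the count filter within hemolymph. The only microRNA of the fat body list, miR-8-3p, was higher in hemolymph at both ages. It is also on the list of muscle and neuromuscular microRNAs given below. Of all microRNAs, 33.1% were called higher in young and 36.3% in old hemolymph. miR-8-3p was at 67624 to 104390 CPM in young body and 143507 to 290544 in young hemolymph. In old flies it was at 127833 to 140063 in body and 254193 to 400818 in hemolymph. The 10 testis microRNAs of the list, none of which passed the filter, summed to 58.7 to 86.0 CPM in young body, 17.9 to 88.3 in young hemolymph, 123 to 198 in old body and 8.27 to 152 in old hemolymph.

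Other microRNAs with a role in muscle or at the neuromuscular junction did not follow the pair as a block. Of 14 on a list that holds no member, all tested, 4 were higher and 5 lower in young hemolymph, with a list median of -0.98 beside -0.26 for all microRNAs, of which 33.1% were called higher and 40.3% lower. The higher ones included miR-9a-5p (1.68 ± 0.44), known for a role in flight muscle, and let-7-5p (1.34 ± 0.31), which acts in neuromuscular remodelling at metamorphosis. Among the lower ones was miR-957-3p (-5.45 ± 0.45), which is also on the nervous system list. RLE scaling gave 4 higher and 8 lower, as did the replicate block, and upper-quartile scaling 6 and 5. In old hemolymph 5 were higher and 6 lower, with a median of -0.28 beside -0.45 for all (36.3% called higher and 46% lower), which turned to 0.19 under upper-quartile scaling. With age in body, where 19.1% of all were called higher and 29.6% lower, 2 rose, miR-34-5p (1.19 ± 0.20) and miR-8-3p (0.66 ± 0.10), and 3 fell, including miR-277-3p (-1.28 ± 0.16). The replicate block, whose numbers pair no ages, left 0 of the list called there. In hemolymph, where 13 of the list were tested and 18.6% of all microRNAs were called higher and 27.9% lower, miR-34-5p (2.60 ± 0.57) and miR-957-3p (2.14 ± 0.45) rose with age, and miR-9a-5p (-2.33 ± 0.32) and miR-277-3p (-1.09 ± 0.28) fell.

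The microRNAs whose levels ran most like the members were not the same for each. Over the 24 libraries the log2 levels of miR-1-3p correlated most with miR-981-3p (Pearson r = 0.942), miR-276b-3p (0.935) and miR-263b-5p (0.905), while those of miR-133-3p correlated most with miR-958-3p (0.971), miR-314-3p (0.971) and miR-210-3p (0.969). The correlation of miR-1-3p with miR-133-3p was 0.864, the 13th highest of 123 for miR-1-3p and the 29th for miR-133-3p. All these values share the libraries and are dominated by the gap between the compartments. Taken as deviations from the group means, miR-1-3p and miR-133-3p had an r of 0.116, which ranked 73rd and 71st. The body libraries of both ages entered this choice, so the neighbours' age changes are a description. The log2 changes of the neighbours of miR-1-3p in body were -1.91 for miR-981-3p, -1.25 for miR-263b-5p and -1.04 for miR-276b-3p. Of the neighbours of miR-133-3p, miR-958-3p was at -0.18, miR-314-3p at 0.11, and miR-210-3p, one of the nervous system list, at 0.94.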

How the data were processed

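Small RNA of 24 libraries was sequenced from TruSeq libraries, per the labels' protocols. Bowtie 1.0, edgeR and dm6 are named, without their roles, per the submitters' processing notes. The authors deposited 1 table with the raw read count of each mature microRNA in each library and the RPM made from it. Only the deposited counts were tested, and the deposited RPM equalled the count scaled to the library within 0.005. The table has 476 rows, of which 10 repeat a mature name, and of each such set only the most abundant row was used, leaving 466 names, 329 with a count. No member's name was repeated.

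edgeR 4.0.16 (R 4.3.3, TMM, filterByExpr with a minimum count of 10, quasi-likelihood test, Benjamini-Hochberg threshold 0.05) was fitted on all 24 libraries for the compartment comparisons and on the 12 libraries of a compartment for age. Ratios and arm shares were compared by exact two-sided permutation tests (Python 3.11.15, scipy 1.17.1), the shares only where every library had 20 counts of the hairpin. The code was tested on simulated data. Intervals are exact at 95%, and floors are 3 counts. Reads carry no molecular identifiers, so both cover counting error only. No 2 of the 68 replicate pairs within groups were identical or within sampling noise (largest chi-square p = 7.1e-40).

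The members are always named, as are the 3 microRNAs closest to each 3p arm by Pearson r of log2 CPM. The members and lists were chosen with earlier results of these data known. Same-numbered young body and hemolymph libraries deviated together (r 0.12 to 0.603 over microRNAs, 4 of 4 above 0.1). Young body library 3 matched hemolymph library 4 better (0.55) than its own number (0.294). Numbers were taken to pair young compartments, but the main tests left libraries unpaired, with the replicate block as an alternative. Numbers of old compartments (1 of 8 above 0.1) and of ages (2 of 4 in each compartment) were not taken to pair libraries. Alternatives were other scalings, filters, DESeq2 1.42.0, a replicate block, subsets by letter or young library, other libraries in the fit, summed rows, and each library left out. Leaving out ovary microRNAs, and leaving single young hemolymph libraries out of summed counts, were added after seeing the data.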

Additional observations from a re-analysis of the deposited data

Results flagged for a closer look

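In 3 of 20 groups of values 1 library stood far from the others of its group. Chance gives about 1 in 20 for continuous values, a rate that does not hold where 1 count stands against 0 in all other libraries, as in the old body values here. In old hemolymph the log2 ratio of miR-1-3p to miR-133-3p was 4.09 in library 2 and at most 1.93 in the others, and this library held 8 counts of miR-1-3p and 0 of miR-133-3p. Without it the difference from old body was 1.45 (exact permutation test, adjusted p = 0.00186). In old body, miR-1-5p was at 6.83 CPM in library 4 and at 0 in the others, from 1 count. For the same reason the 5p share of mir-1 there was 1.18% and 0 elsewhere.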

How the results depend on the processing

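Both 3p arms stayed lower in hemolymph, and called, under all 13 other settings at each age: between -3.32 and -2.20 for miR-1-3p and between -6.31 and -4.29 for miR-133-3p in young flies, and between -3.86 and -2.73 and between -5.80 and -5.0 in old flies. With 1 library left out the ranges were -3.27 to -2.53, -6.18 to -5.17, -3.51 to -3.23 and -5.56 to -5.33. RLE scaling moved the median of all microRNAs by -0.48 in the young and -0.27 in the old comparison, and upper-quartile scaling by 0.61 and 0.48. The replicate block changed no compartment call of a member. With the block the young ratio difference was 2.47, higher in 4 of 4 pairs (exact sign-flip p = 0.125, the smallest possible), and the old one 1.84.

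For age in body, miR-1-3p was at -1.52 with the replicate block (adjusted p = 0.0575, call lost) and between -1.65 and -1.08 with 1 library left out. The block, whose numbers pair no ages, left 2 higher and 3 lower calls in place of 22 and 34. miR-133-3p passed the threshold with upper-quartile scaling (-0.50) and with rows of a name summed (-0.43), was at 0.02 (0.015) without young libraries 1 and 2, and ranged from -0.56 to -0.18 with 1 library left out, passing in 6 of those fits. For age in hemolymph, miR-1-3p lost its call without young libraries 1 and 2 (-1.67) and ranged from -2.16 to -1.38 with 1 left out. The ratio of the pair missed the threshold with O-coded libraries (2.66 in old flies, -1.10 for age in body), with R-coded ones (1.03 and -0.84), each at an adjusted p of 0.0571 from the smallest exact p of 4 against 4, and for age in body without young libraries 1 and 2 (-0.77). On those libraries the young difference was 1.31 and that of age in hemolymph -0.24, neither past the threshold. With so few young libraries the exact permutation test could not pass it in any comparison with a young group, so those misses decide nothing. With 1 library left out, ratio differences ran from 1.67 to 3.09 (young), 1.45 to 2.03 (old), -1.09 to -0.89 (body age) and -2.21 to -0.80 (hemolymph age). None of the values that changed sign was called. The difference of age changes was 0.29 for miR-1-3p with O-coded libraries (-0.85 to -0.08 with 1 left out). For miR-133-3p it was -1.21 without young libraries 1 and 2, and -0.06 and -0.30 among fits with 1 left out (-0.30 to 0.72). The 5p share of mir-1 in old minus young body was 0.116 points with O-coded libraries, and 0.0402 and 0.0158 among those with 1 left out (-0.179 to 0.0402), beside 0.0772 to 0.163 for mir-133.

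Called counts varied over the settings from 31 to 55 higher and 43 to 75 lower (young compartments), 36 to 62 and 46 to 82 (old), 2 to 35 and 3 to 36 (body age), 9 to 20 and 11 to 28 (hemolymph age) and 3 to 20 and 1 to 19 (difference of age changes). The cause was not tested. miR-1-3p was not tested for age in hemolymph with O-coded libraries, and depth leaves miR-133-3p at 0 to 4 counts in each hemolymph library.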
